A study of Sus scrofa with 12 samples.

Results

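The urea cycle and the enzymes that move ammonia between glutamate and glutamine were followed through 9 genes in the liver of pigs. The breeds were Jinhua (JH) and Landrace (LD). The genes were taken by symbol and function, with earlier results of these data known. The list holds the cycle enzymes CPS1, OTC, ASS1, ASL and ARG1, the cofactor enzyme NAGS, the glutamine synthetase gene GLUL, the liver glutaminase gene GLS2 and the glutamate dehydrogenase gene GLUD1. Of the 9 symbols, 8 had a row among the 31694 rows of the mRNA files. ASL had no row under its symbol. GLS2 was listed at 0 in all 6 libraries, and the other 7 genes passed the filter on low values. The row LOC100517757 carries the NCBI gene number that RefSeq gives to ASL, and its values are given beside the members without being counted among the 7.

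The mRNA came from whole liver of 3 JH and 3 LD pigs, all of them uncastrated males of 70 days with no stated treatment, and each pig gave 1 library. The JH pig is a slow-growing Chinese breed that lays down much fat, the LD pig is a fast-growing lean breed, and the submitters labelled LD as the control. No source used here says whether pigs of a breed shared a litter, a pen or a feed, so an effect of breed and one of anything the pigs of a breed had in common cannot be told apart.

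Ammonia freed from amino acids is toxic, and the liver clears it along 2 routes. In periportal hepatocytes, which blood reaches first, carbamoyl phosphate synthetase and ornithine transcarbamylase in the mitochondria and 3 further enzymes in the cytosol turn ammonia and aspartate into urea, which the kidney excretes. In a thin ring of perivenous hepatocytes, glutamine synthetase binds the ammonia that escaped and releases it as glutamine. Glutaminase and glutamate dehydrogenase work the other way and free ammonia for the cycle.

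The authors aligned 50 base single reads and deposited RPKM values, reads per gene scaled to the length of the gene and to the depth of the library. Low values were whole multiples of 1 read, which gave rounded totals of between 5740000 and 7910000 reads behind the RPKM of a library. For each library the paper reports more clean reads than that total. What the totals leave out was not tested. The ribosomal RNA gene RN18S stood at 62257 RPKM in JH3 and 20160 RPKM in LD3, against 1570 to 7309 RPKM in the other libraries, so JH3 and LD3 stood apart. The breeds were compared in limma on log2(RPKM + 0.1) over the 12993 genes that reached 0.5 RPKM in 3 or more of the libraries. On this scale the median of these genes was 2.10 in JH3 and in LD3, against 2.35 to 2.42 in the other libraries. On this scale fold changes of low genes are understated. A gene was called a differentially expressed gene (DEG) when its Benjamini-Hochberg adjusted p was below 0.05 and its log2 fold change (JH over LD, as throughout) was above 1 or below -1. By this rule 310 genes (2.39%) were DEGs, 133 of them higher in JH (1.02%) and 177 lower in JH (1.36%). With the values scaled to the same sum per library (TPM) the split was 104 higher and 258 lower. At an unadjusted p below 0.05 there were 17.9% of all tested genes, 8.35% higher and 9.51% lower in JH. The 3 JH values lay wholly apart from the 3 LD values in 23.4% of the tested genes, above them in 10.8% and below them in 12.5%.

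Of the 7 tested members, 1 was a DEG, against 2.39% of all tested genes. GLUL, the gene of the enzyme that joins ammonia to glutamate, was lower in JH. ARG1, the enzyme that splits arginine into urea and ornithine, stood higher in every JH pig than in any LD pig, and CPS1, the enzyme of the first step, stood lower in every JH pig than in any LD pig, but neither reached the adjusted p limit. OTC, ASS1, NAGS and GLUD1 overlapped between the breeds. At an unadjusted p below 0.05 there were 2 of the 7, ARG1 and GLUL, against 17.9% of all tested genes. Without overlap 1 of the 7 stood higher and 2 stood lower in JH, against 10.8% and 12.5% of all tested genes.

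**Figure D1:**
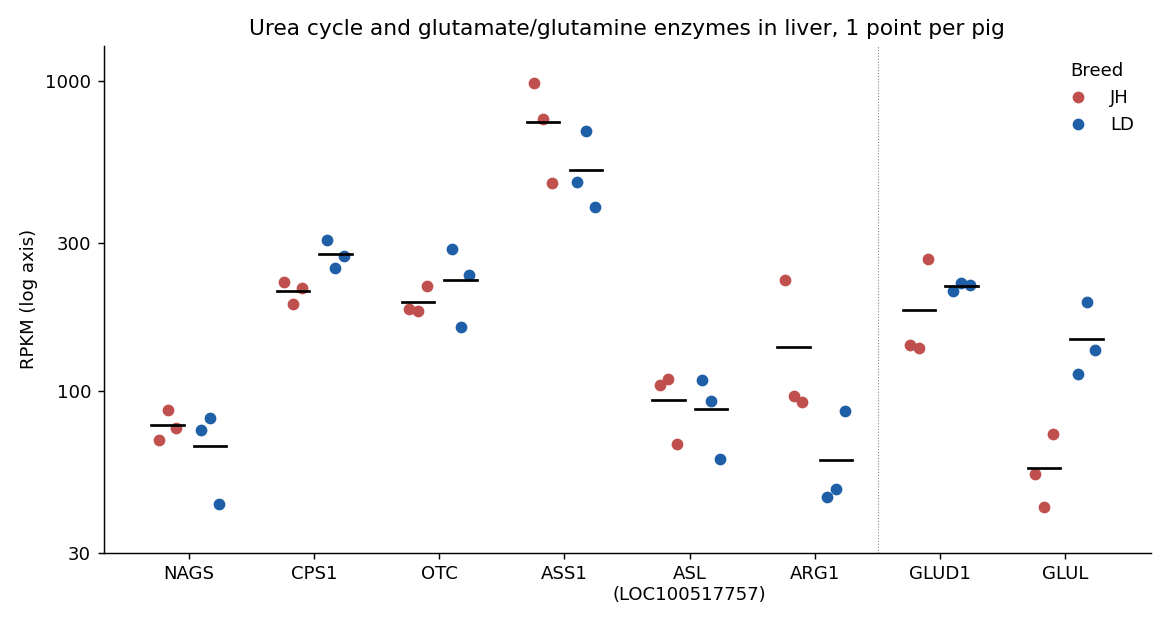
RPKM on a log axis of the genes of the urea cycle (left of the dotted line) and of glutamate and glutamine conversion (right of it), with 1 point per pig, JH in red and LD in blue, and a black bar at the mean of the 3 pigs of a breed. The GLUL points of the JH pigs lie between 42.1 and 72.7 RPKM, below all 3 LD pigs, and ASS1 is the highest gene in both breeds.

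In level, the cycle enzymes were among the abundant mRNAs of this tissue. By the mean over the 6 libraries ASS1 ranked 126, CPS1 299 and OTC 348 among the 19614 genes above 0, which is the top 0.642%, 1.52% and 1.77%, and NAGS, the lowest member above 0, ranked 920 (4.69%). In both breeds the order began with ASS1, CPS1, OTC and GLUD1. Only ASS1 lay clear of the next gene in the order in both breeds, while the ranges of CPS1 and OTC, and of OTC and GLUD1, overlapped in both. The order then differed. In JH it went on with ARG1, LOC100517757, NAGS and GLUL, each overlapping the next. In LD it went on with GLUL, LOC100517757, NAGS and ARG1, and GLUL lay clear of the genes on both sides. So GLUL was the lowest gene of the 8 in JH and the fifth in LD, and ARG1 was the fifth in JH and the lowest in LD. The length recovered behind the ASS1 values was 838 bases, against 1358 to 5401 bases for the other members with a recovered length, and the level of ASS1 rests on that short gene model.

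The cycle starts in the mitochondrion with NAGS, which makes the N-acetylglutamate that CPS1 needs to be active. NAGS was at 69.4, 87.0 and 76.0 RPKM in JH1, JH2 and JH3 and at 74.8, 81.6 and 43.0 RPKM in LD1, LD2 and LD3. The breeds overlapped, with LD3 the lowest of all pigs. NAGS had a log2 fold change of 0.27 (95% confidence interval -0.39 to 0.92, limma adjusted p = 0.671).

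CPS1, which joins ammonia and bicarbonate into carbamoyl phosphate, was at 224, 190 and 214 RPKM in the JH pigs and at 307, 249 and 272 RPKM in the LD pigs. These values rest on 6959 to 11780 reads per library, the most of any member with recovered reads. The 3 JH pigs were all below the 3 LD pigs, and the pigs of a breed were close to one another, with an SD of 8.34% of the mean in JH and 10.6% in LD. CPS1 had a log2 fold change of -0.40 (standard error 0.23, 95% confidence interval -0.90 to 0.11, limma adjusted p = 0.400). As TPM it was -0.547 (limma unadjusted p = 0.0303, limma adjusted p = 0.201). Under quantile normalization it was -0.535 (limma unadjusted p = 0.0369, limma adjusted p = 0.222). In the two-sided exact permutation test over pigs p was 0.1, the smallest that 3 against 3 allow.

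OTC passes carbamoyl phosphate to ornithine and makes citrulline. It was at 184, 181 and 217 RPKM in JH and at 287, 160 and 237 RPKM in LD. LD2 was the lowest and LD1 the highest of all 6 pigs, so the JH values lay within the LD range. Between the breeds OTC differed by a log2 fold change of -0.20 (95% confidence interval -0.81 to 0.42, limma adjusted p = 0.751).

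In the cytosol ASS1 joins citrulline to aspartate, which brings in the second nitrogen of urea. ASS1 was at 989, 754 and 469 RPKM in JH1, JH2 and JH3 and at 473, 691 and 391 RPKM in LD1, LD2 and LD3. JH3 was below LD1 and LD2, and the spread within each breed was as wide as the difference between the means. For ASS1 the log2 fold change was 0.48 (95% confidence interval -0.28 to 1.25, limma adjusted p = 0.498).

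Argininosuccinate lyase, the product of ASL, then releases arginine and fumarate. LOC100517757, the row with the gene number of ASL, was at 104, 109 and 67.5 RPKM in JH and at 108, 92.7 and 60.3 RPKM in LD. The pigs numbered 3 were the lowest of both breeds for this row, as they were for the median over all tested genes. Its log2 fold change of 0.11 (95% confidence interval -0.58 to 0.80, limma adjusted p = 0.883) turned to -0.057 under quantile normalization and to -0.040 as TPM, so no direction can be given.

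ARG1 was at 227 RPKM in JH1, 96.3 in JH2 and 92.2 in JH3, and at 45.4 RPKM in LD1, 48.1 in LD2 and 86.0 in LD3. The breeds did not overlap, but the lowest JH pig and the highest LD pig were close, and JH1 stood far above the other 5 pigs. The values rest on 707 to 2864 reads. ARG1 had a log2 fold change of 1.14 (standard error 0.40, 95% confidence interval 0.24 to 2.04) and was no DEG (unadjusted p = 0.0185, limma adjusted p = 0.182). Without JH1 the log2 fold change was 0.72, without JH3 1.37 and without LD3 1.43, and in the 16 alternative settings it lay between 0.72 and 1.43 with no call. The exact permutation p was 0.1.

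Summed over CPS1, OTC, ASS1, LOC100517757 and ARG1, the cycle stood at 1729, 1331 and 1060 RPKM in the JH pigs and at 1221, 1241 and 1047 RPKM in the LD pigs, and the breeds overlapped. The share of each enzyme in this sum overlapped between the breeds too. CPS1 made up 15.8% ± 3.87 (SD, n = 3) of it in JH and 23.7% ± 3.20 (SD, n = 3) in LD, with JH3 at 20.2% just above LD2 at 20.1%. ARG1 made up 13.2%, 7.23% and 8.70% in the JH pigs and 3.72%, 3.87% and 8.22% in the LD pigs, and JH2 was below LD3. OTC made up 14.9% ± 5.06 in JH and 19.7% ± 5.88 in LD, ASS1 52.7% ± 7.36 and 43.9% ± 10.18, and LOC100517757 6.86% ± 1.15 and 7.37% ± 1.56 (SD, n = 3).

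GLUL was at 53.8, 42.1 and 72.7 RPKM in JH1, JH2 and JH3 and at 113, 194 and 135 RPKM in LD1, LD2 and LD3. All JH pigs were below all LD pigs, and the highest JH pig, JH3, was well below the lowest LD pig, LD1. The means were 56.2 ± 15.5 (SD, n = 3) RPKM for JH pigs against 147 ± 41.9 (SD, n = 3) RPKM for LD pigs. Behind them stood 420, 443 and 764 reads in JH and 1089, 2080 and 1451 reads in LD. This was a log2 fold change of -1.39 (standard error 0.30, 95% confidence interval -2.06 to -0.71, limma adjusted p = 0.0490), so GLUL was 2.62 times as high in LD. Its size of change put GLUL among the top 6.55% of the tested genes. In the exact permutation test p was 0.1.

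The call of GLUL stood close to its limit. When single libraries were removed, the call held in 1 of 6 cases, without JH3 (log2 fold change -1.59, limma adjusted p = 0.0318), and the limma adjusted p was 0.118 without JH1, 0.148 without JH2, 0.107 without LD1, 0.167 without LD2 and 0.119 without LD3 (log2 fold change -1.43). The log2 fold change of GLUL stayed between -1.59 and -1.17 in all 16 alternative settings.

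**Figure D2:**
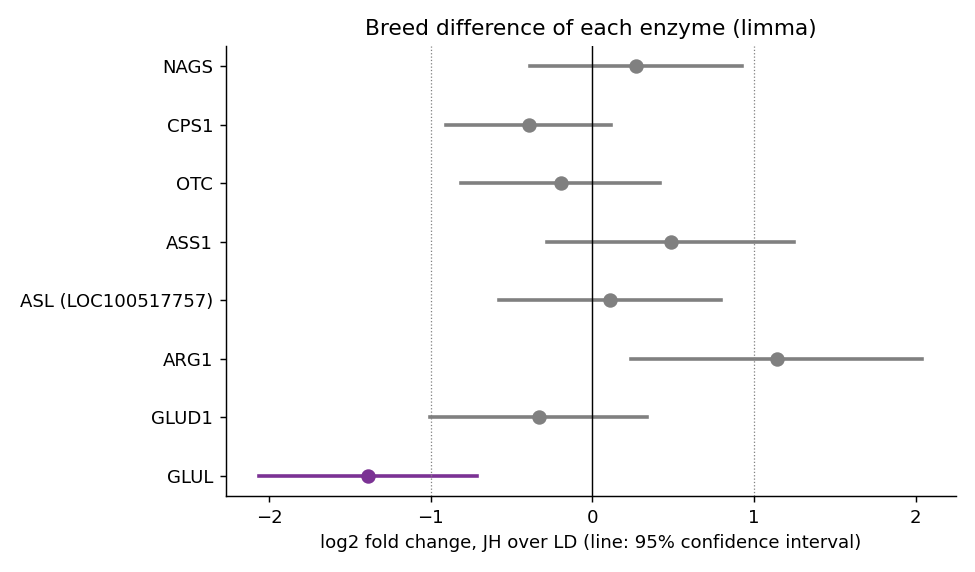
Log2 fold change for each gene, JH over LD, with the 95% confidence interval from limma as a line, dotted lines at the limits of -1 and 1, and purple for the DEG. The intervals of GLUL and ARG1 leave out 0, and those of the other genes hold it.

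Since a ratio of 2 genes within a pig does not depend on how the libraries are scaled, GLUL was also set against each other tested member. In every JH pig GLUL was lower relative to ARG1, CPS1, OTC, ASS1, NAGS and GLUD1 than in every LD pig, so 6 of the 6 ratios did not overlap between the breeds. GLUL over CPS1 was 0.240, 0.221 and 0.339 in JH and 0.368, 0.778 and 0.496 in LD. GLUL over GLUD1 was 0.384, 0.306 and 0.272 in JH and 0.536, 0.872 and 0.615 in LD, and GLUL over NAGS was below 1 in each JH pig and above 1 in each LD pig. The ratios share the GLUL values and are not independent of one another, and among the ratios of GLUL to every other tested gene above 0 in all libraries 68.0% did not overlap. Of all 21 ratios among the 7 members 8 did not overlap, and the other 2 were those of ARG1 over CPS1 and over OTC, both higher in JH. Over all pairs of such genes the share without overlap was 27.0%, and over the ratios of ARG1 it was 31.5%. None of the 10 ratios among CPS1, OTC, ASS1, NAGS and GLUD1 separated the breeds.

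**Figure D3:**
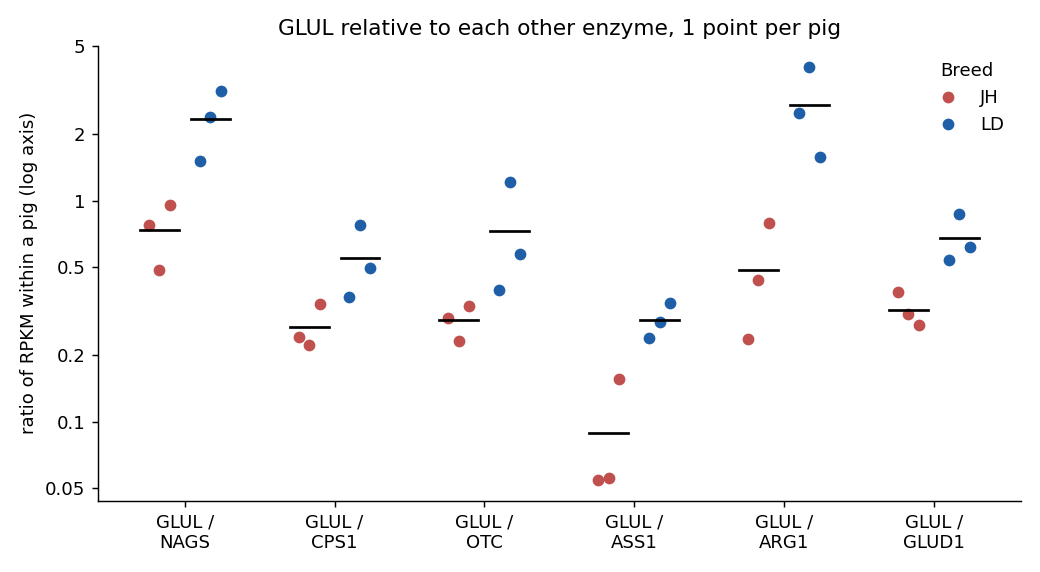
Ratio of the RPKM of GLUL to that of each other enzyme within a pig, on a log axis, with 1 point per pig, JH in red and LD in blue, and a black bar at the mean of a breed. In each of the 6 columns the 3 JH points lie below the 3 LD points, and for GLUL over ASS1 they lie at 0.0544, 0.0558 and 0.155 against 0.239 to 0.345.

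GLUD1, which takes the amino group off glutamate as free ammonia, was at 140, 137 and 267 RPKM in JH1, JH2 and JH3. In LD it was at 211, 222 and 220 RPKM, the tightest group of any member, with an SD of 2.79% of the mean against 40.9% in JH. JH1 and JH2 were below the LD pigs and JH3 was above them. GLUD1 had a log2 fold change of -0.33 (95% confidence interval -1.003 to 0.338, limma adjusted p = 0.599), and -0.65 without JH3. Whole reads could not be recovered for GLUD1.

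GLS2, the glutaminase of periportal hepatocytes, was listed at 0 in each library, which in these files need not mean that a gene was silent, since APOB, the main protein of liver lipoproteins, was listed at 0 in each library too.

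The 3 tested genes whose centred log2 values over the 6 libraries lay nearest to those of GLUL were LOC100738647, LOC100038019 and LOC100739307, with root mean square differences of 0.039, 0.11 and 0.13 on the log2 scale. RefSeq names LOC100038019 by its number as TGFBR2, a receptor of TGF-beta, and lists LOC100738647 as a pseudogene with no parent gene named there. LOC100739307 was not matched. Their log2 fold changes were -1.37, -1.53 and -1.36, a direction that the choice by likeness to GLUL fixed. LOC100738647 held between 46 and 223 reads, and its reads were between 0.101 and 0.110 of those of GLUL in every library. Whether these are reads of GLUL that also match the pseudogene was not tested, and how the authors' counting treats such reads is not given in the sources used here.

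In bulk tissue fewer cells of a type and less RNA per cell cannot be told apart, and GLUL is known to be made by few hepatocytes. Of 8 hepatocyte markers 7 were tested and 0 were DEGs. An unadjusted p below 0.05 was met by 1 with higher and 3 with lower values in JH, against 8.35% and 9.51% of all tested genes. Summed, the hepatocyte markers stood at 57039 to 69171 RPKM in JH and 71970 to 85357 RPKM in LD. The largest part of this sum was ALB, at 27533 to 33599 RPKM in JH and 37742 to 53893 RPKM in LD. ALB, SERPINA1 and TF stood lower and APOA1 higher in every JH pig than in any LD pig, while TTR, FGB and HNF4A overlapped. Markers of some other cells moved in the direction of GLUL. Of 8 stellate and fibroblast markers 4 were DEGs, all lower in JH (COL1A1, COL1A2, COL3A1 and LRAT), with a summed level of 85.0 to 104 RPKM in JH and 196 to 390 RPKM in LD. Of the bile duct markers EPCAM and SOX9 were tested, and EPCAM was a DEG lower in JH, with KRT7 and KRT19 absent from the files. The summed level over 3 rows was 1.55 to 2.13 RPKM in JH and 5.24 to 9.64 RPKM in LD. These rows held few reads per library, 10 to 56 for EPCAM, 2 to 58 for SOX9 and 3 to 39 for CFTR. Of 6 erythroid markers 2 were tested, with HBA1, HBA2 and AHSP absent from the files. The red cell gene HBB was a DEG lower in JH, while ALAS2 overlapped between the breeds. The summed erythroid level, nearly all of it HBB, was 90.2 to 122 RPKM in JH and 213 to 393 RPKM in LD. Of 7 endothelial markers tested 0 were DEGs. PECAM1, KDR and VWF still stood lower in every JH pig than in any LD pig, as did 12.5% of all tested genes. The unadjusted p was below 0.05 for PECAM1 and KDR, and the median log2 fold change of the 7 was -0.48. None of the 5 macrophage and 7 lymphocyte markers tested were DEGs or separated the breeds, and the macrophage marker CD163 was listed at 0. The part of these other cells in the GLUL result was not tested. Of 6 kidney and gut markers 4 had rows and none passed the filter, with AQP2 at 0.

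Markers of the liver zones stood on both sides. Of 16 perivenous markers 13 were tested, and only GLUL itself was a DEG. Among the other 12 tested, 3 stood higher and 4 stood lower in every JH pig than in any LD pig. Over all tested genes 10.8% stood higher and 12.5% lower in this way. The median log2 fold change of the 12 was 0.15, against 0.04 over all tested genes. CYP2E1, an ethanol-oxidizing cytochrome of perivenous cells, was at 1015, 910 and 328 RPKM in JH and at 2177, 1126 and 1368 RPKM in LD (log2 fold change -1.16, limma adjusted p = 0.219). RNF43, a ligase that dampens Wnt signals, went the other way, with 14.5, 13.2 and 7.31 RPKM in JH and 4.28, 4.70 and 3.73 RPKM in LD (log2 fold change 1.39, limma adjusted p = 0.0516). RNF43 was called higher in JH in 7 of the 16 alternative settings. CYP2E1 and RNF43 were picked after their values were seen.

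Of 14 periportal markers 12 were tested and none was a DEG. At an unadjusted p below 0.05 there were 3 higher and 2 lower in JH, against 8.35% and 9.51% of all tested genes. The median log2 fold change of the 12 was -0.05. The largest changes among them were those of HSD17B13, a lipid droplet enzyme, with a log2 fold change of -2.23 (limma adjusted p = 0.0754) that was -1.52 without JH3 and was called in 4 of the 16 alternative settings, and SDS, which breaks serine down to pyruvate and ammonia, with a log2 fold change of 1.18 (limma adjusted p = 0.194). SDS was called in none of the 16.

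Over all lists together, the zone markers above included, 64 genes other than members were tested and 3 were DEGs, against 2.39% of all tested genes. ARG2 and ASNS were higher in JH and SLC7A2 lower in JH. The 64 had a median log2 fold change of 0.04, the same as that of all tested genes. Of the 64, 10 stood higher and 10 lower in every JH pig than in any LD pig, against 10.8% and 12.5% of all tested genes.

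ARG2, the mitochondrial arginase, was at 31.3, 18.8 and 13.7 RPKM in JH1, JH2 and JH3 and at 3.37, 3.46 and 4.49 RPKM in LD1, LD2 and LD3. The lowest JH pig was above the highest LD pig by a wide margin, on 263, 213 and 155 reads against 35, 40 and 52. ARG2 had a log2 fold change of 2.39 (standard error 0.33, 95% confidence interval 1.66 to 3.12, limma adjusted p = 0.00867), or 5.24 times as high in JH. With single libraries removed ARG2 kept its call in 5 of 6 cases, the exception being LD1 (log2 fold change 2.32, limma adjusted p = 0.0548). So both arginase genes stood higher in every JH pig, but only ARG2 passed the test, and ARG1 remained the more abundant of the 2 in each pig.

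SLC7A2, a carrier of arginine, lysine and ornithine into hepatocytes, was at 5.18, 3.29 and 6.17 RPKM in JH and at 13.8, 17.5 and 15.7 RPKM in LD. No JH pig reached the LD range. SLC7A2 had a log2 fold change of -1.70 (standard error 0.29, 95% confidence interval -2.35 to -1.06, limma adjusted p = 0.0224), or 3.25 times as high in LD. With single libraries removed the call held in 2 of 6 cases and was lost without JH2, LD1, LD2 or LD3, with log2 fold changes between -1.89 and -1.45 over the 6.

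ASNS takes the amide nitrogen of glutamine to make asparagine. ASNS was at 4.109, 5.674 and 10.18 RPKM in JH and at 1.39, 1.86 and 1.33 RPKM in LD. JH3 was the highest, and all JH pigs were above all LD pigs. ASNS had a log2 fold change of 1.97 (standard error 0.35, 95% confidence interval 1.17 to 2.77, limma adjusted p = 0.0301). It held its call in 2 of 6 removals of a library and lost it without JH2, LD1, LD2 or LD3, with log2 fold changes between 1.61 and 2.26, and also lost it with no filter on low values (limma adjusted p = 0.0548). CTPS1, which spends glutamine on CTP, was picked after its values were seen and stood at 6.16, 4.42 and 2.29 RPKM in JH and 0.871, 1.96 and 1.17 RPKM in LD, with a log2 fold change of 1.58 short of the limit (limma adjusted p = 0.0971). Of the 7 glutamine amide users tested these were the only 2 whose breeds did not overlap, where 23.4% of all tested genes did not.

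**Figure D4:**
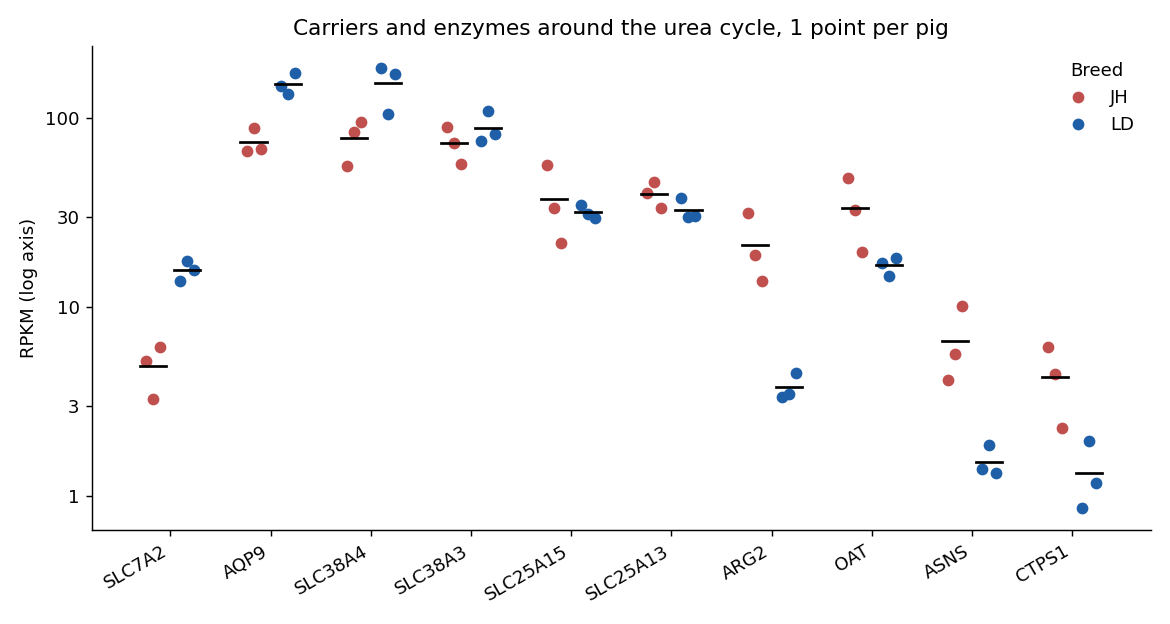
RPKM on a log axis of carriers (the 6 genes on the left) and enzymes (the 4 on the right) around the urea cycle, with 1 point per pig, JH in red and LD in blue, and a black bar at the mean of a breed. ARG2 and ASNS lie higher and SLC7A2 lower in JH with no overlap, while SLC38A3, SLC25A15 and SLC25A13 overlap.

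The carriers of the cycle itself showed no call. SLC25A15 exchanges ornithine and citrulline across the inner mitochondrial membrane and was at 56.2, 33.6 and 21.9 RPKM in JH and 34.7, 31.2 and 29.7 RPKM in LD. It had a log2 fold change of 0.12 (limma adjusted p = 0.884), which turned negative under quantile normalization and as TPM. SLC25A13, which brings aspartate out to ASS1, had a log2 fold change of 0.27 (95% confidence interval -0.26 to 0.81, limma adjusted p = 0.588).

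Of the 10 carriers tested SLC7A2 was the only DEG. Against a share of 12.5% over all tested genes, 3 carriers stood lower in every JH pig than in any LD pig. Beside SLC7A2 these were AQP9, a channel for urea and glycerol, and SLC38A4, an amino acid carrier of hepatocytes, both picked after their values were seen. AQP9 was at 66.5, 88.0 and 68.4 RPKM in JH and at 148, 133 and 173 RPKM in LD (log2 fold change -1.03, limma adjusted p = 0.0614). SLC38A4 was at 55.8, 83.8 and 95.7 RPKM in JH and at 184, 105 and 171 RPKM in LD (log2 fold change -0.96, limma adjusted p = 0.153). The carrier SLC25A22, also picked after its values were seen, went the other way with overlap. It was at 55.8, 58.8 and 36.1 RPKM in JH and at 24.1, 36.4 and 18.4 RPKM in LD (log2 fold change 0.96, limma adjusted p = 0.165). At an unadjusted p below 0.05 there were 1 carrier higher and 3 lower in JH, against 8.35% and 9.51% of all tested genes. The median log2 fold change of the 10 was 0.08. SLC38A3, which carries glutamine through the hepatocyte membrane, overlapped between the breeds with a log2 fold change of -0.27 (95% confidence interval -0.87 to 0.33, limma adjusted p = 0.634). RHBG, an ammonia carrier of perivenous cells, had no row.

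The remaining lists held few or no calls. Of the 10 enzymes of ornithine, arginine and proline tested, ARG2 was the only DEG. The median log2 fold change of the 10 was 0.42, against 0.04 over all tested genes. In every JH pig 4 of the 10 stood higher than in any LD pig, and none stood lower. Over all tested genes these shares were 10.8% and 12.5%. OAT, which turns ornithine into glutamate semialdehyde, was one of the 4 and was picked after its values were seen. OAT was at 48.3, 32.7 and 19.5 RPKM in JH and 17.1, 14.6 and 18.3 RPKM in LD (log2 fold change 0.91, limma adjusted p = 0.194). Of 8 transaminases and other genes of glutamate supply none was a DEG, none separated the breeds and none had an unadjusted p below 0.05, and the alanine transaminase GPT had a log2 fold change of -0.54 (limma adjusted p = 0.534). Of 11 tested regulators of the cycle genes none was a DEG, with CEBPB and KLF15 listed at 0 and the glucagon receptor gene GCGR absent. CREB3L3, a liver factor active in fasting, was at 392, 313 and 178 RPKM in JH and 131, 160 and 126 RPKM in LD (log2 fold change 1.02, limma adjusted p = 0.142). CREB1, which answers to cAMP, had a log2 fold change of -0.82 (limma adjusted p = 0.195) on 5 to 13 reads per library.

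**Figure D5:**
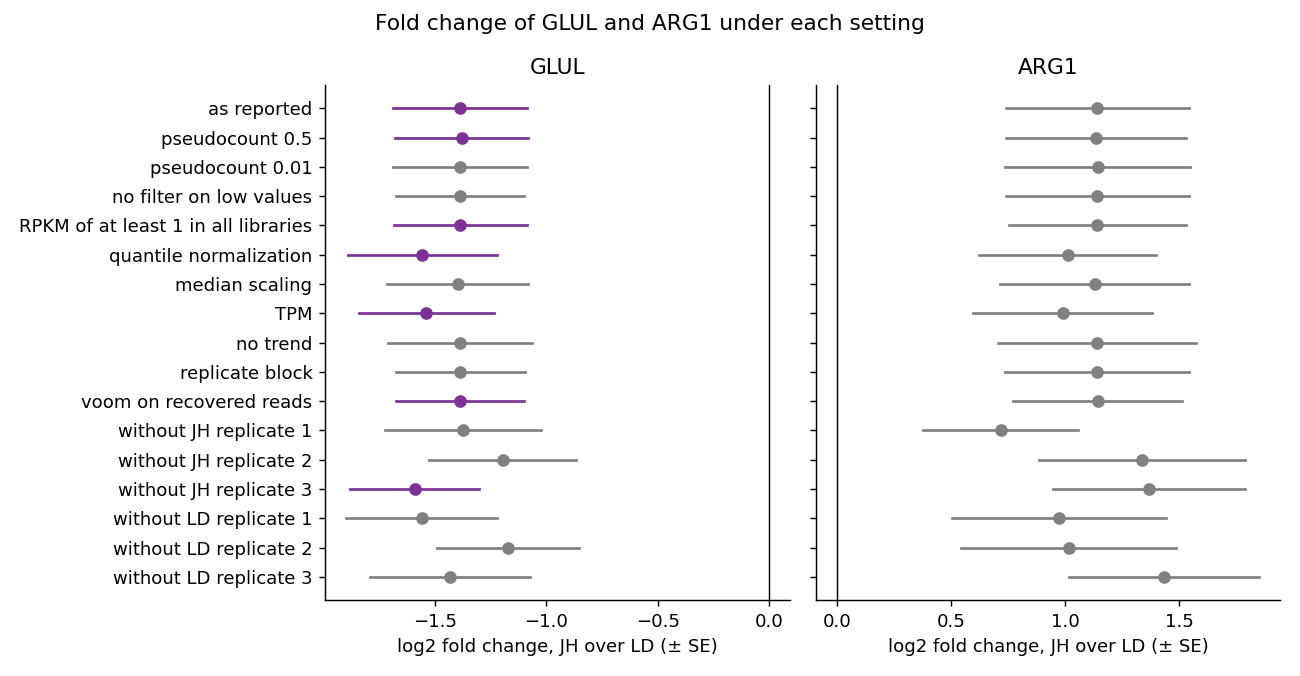
Log2 fold change, JH over LD, of GLUL (left) and ARG1 (right) under each setting, with the standard error as a line and purple where the gene was called a DEG. GLUL stays between -1.59 and -1.17 and is called in 6 of the 16 alternatives, while ARG1 stays between 0.72 and 1.43 and is called in none.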

How the data were processed

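Liver mRNA of 3 JH and 3 LD pigs was analysed, 1 library per pig, assigned by the public sample titles. The authors removed adaptors and low quality reads, aligned 50 base single reads to Sus scrofa 10.2 with Tophat v2.0.13, obtained gene counts in gfold and deposited the expression of each gene as RPKM. The gene annotation used is not given in the sources used here. The miRNA files were not used. Of the identifiers, 24 are dates in place of symbols.

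Whole reads were recovered by searching for the read totals and gene lengths that turn RPKM into integers. Of 19614 genes above 0, 17124 (87.3%) were resolved, with 99.96% of their values within 0.05 of a whole number. Reads describe counting error only.

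Breeds were compared in limma 3.58.1 (R 4.3.3), lmFit and eBayes with a trend, over all 12993 tested genes with Benjamini-Hochberg adjustment and the thresholds of the study, which used DEGseq. Single genes were also compared by two-sided exact permutation over pigs (scipy 1.17.1). The p-values of limma rest on the spread between the 3 pigs of a breed, drawn for each gene towards that of other genes of like level. A gene whose pigs lie close, such as CPS1, thus has a larger standard error than its own pigs give. The limma test was also run on simulated data with independent noise in each gene and library. Those data hold no shift of a whole library such as that of JH3 and LD3, so they cannot show how the test does with one. Python 3.11.15, pandas 2.3.3, numpy 2.4.6 and matplotlib 3.10.9 were used.

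The members and gene lists were chosen with earlier results of these data known. Named are all members, per list each gene past the adjusted p or else the 2 with the largest change, the 3 genes nearest to the member with the largest change, and genes said to be picked after their values were seen. A gene that this rule names is not reported here. The alternatives were pseudocounts of 0.5 and 0.01, no filter, an RPKM of at least 1 in all libraries, quantile normalization, median scaling, TPM, no trend, the replicate block, voom on recovered reads and each library left out. Counting zonation markers without the members was added after seeing the data. No sequences were used.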

Additional observations from a re-analysis of the deposited data

How the results depend on the processing

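Among the members only GLUL changed its call. It was called with a pseudocount of 0.5, an RPKM of at least 1 in all libraries, quantile normalization, TPM, voom and without JH3, and lost with a pseudocount of 0.01 (log2 fold change -1.39), with no filter (-1.39), with median scaling (-1.40) and with no trend (-1.39), so that 0 members were called there. With each library left out it lay between -1.59 and -1.17, and between 0 and 1 members were called. The genes called over all tested numbered 199 with a pseudocount of 0.01, 200 with no filter and 79 to 406 with a library left out. Of the pathway genes and zone markers other than members, 6 were called under quantile normalization, 6 with voom and 0 to 9 with a library left out. Leaving GLUL out of the perivenous list left 0 markers called in the fit as reported, while RNF43 was called in 7 of the 16 alternatives. Scaling to TPM moved the median log2 fold change of all genes by -0.15. Relative to that median GLUL stood at -1.43.

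With the replicate block, 0 members were called and GLUL had a log2 fold change of -1.39, and 253 genes were called in all. Same-numbered libraries deviated together with r of -0.016, 0.052 and 0.18 across genes. The 0.18 of JH3 with LD3 was the highest r of any JH library with any LD library. JH1 correlated best with LD2 and JH2 with LD1, so the numbers were not taken as pairs. What JH3 and LD3 may share was not tested.

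Directions turned for LOC100517757 (-0.057 under quantile normalization, -0.040 as TPM, -0.13 to 0.33 with a library left out), SLC25A15 (-0.046, -0.030 and -0.23 to 0.45) and NAGS (-0.018 to 0.44 with a library left out). The causes were not tested. The other members kept their direction in each of the 16 alternatives, of which GLUD1 could be fitted in 15, since its reads were not recovered for voom. Every tested member with recovered reads held at least 420 reads in each library.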

Other observations

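PCK1, the enzyme that commits amino acid carbon to glucose, was at 753 RPKM in JH1, 85.0 in JH2 and 28.0 in JH3, and at 99.4, 113 and 169 RPKM in LD1, LD2 and LD3. The JH pigs differed 26.9-fold and the LD pigs 1.70-fold. JH1, the pig with the highest ARG1 and ASS1, thus also had the highest PCK1. The same pig was highest for FBP1 (1430 RPKM, against 357 to 740 in the other 5) and GPT2 (52.4 RPKM, against 9.61 to 41.2). For SDS it stood at 11.5 RPKM, close to JH3 at 10.3 RPKM, the pig with the lowest PCK1. GPT was highest in LD2 (4.798 RPKM), with JH1 at 3.46 RPKM. TAT, the tyrosine transaminase, went by another order, at 482 RPKM in JH3 and 353 RPKM in LD3 against 140 to 185 RPKM in the other 4 pigs. These genes were picked after their values were seen, and no test was run on these differences between single pigs.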
